A study of Rattus norvegicus with 8 samples.

Results

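The genes described here are those of the mast cell granule: the proteases Mcpt1, Mcpt2, Mcpt10, Cma1, Tpsab1, Tpsb2 and Cpa3, the proteoglycan gene Srgn, the histamine-forming enzyme gene Hdc and the receptor gene Kit. They were selected on measured values, the log2 difference between hypertensive and control vessels in these same arrays: the list was drawn up with earlier results known. The differences between the groups given below therefore describe the genes and are not independent evidence, and nothing is read from their counts beside the background. Of the 10 genes listed, 9 were read by a probe on the array, with 13 probes of 45598 in all. All 13 probes were well above background on all 8 arrays, so the detection filter removed none of them. No gene in the annotation table used here carries the symbol Mcpt2, whose older alias is now listed under Mcpt1, and Mcpt2 has no value of its own below.

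Vessels came from 4 hypertensive disease model rats and 4 control rats, all male, and RNA of each rat was hybridised to 1 single-colour Agilent array. The labels give Wistar-Kyoto, usually a normotensive strain, for both groups, and the strain or treatment that made them hypertensive, the age of the rats and the vessel taken are not given in the sources used here. All 8 arrays lay on 1 slide and were scanned together, with the hypertensive samples in 1 row and the control samples in the other, so slide row and group cannot be told apart. Levels are log2 signal relative to the 75th percentile of the array, a signal of 357 to 478 in hypertensive arrays and 405 to 503 in control arrays, and changes are hypertensive minus control.

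Mast cells are resident immune cells that lie along blood vessels, mainly in the adventitia and the surrounding fat. Their granules store serine proteases (chymases, which cut after aromatic residues, and tryptases, which cut after basic ones), carboxypeptidase and histamine, bound to heparin chains on the serglycin core protein. Chymase can form angiotensin II or, in the case of several rodent chymases, degrade it, which is one reason these cells are studied in hypertension. Rat mast cells of connective tissue and of mucosa differ in the proteases they hold. The cells depend on the receptor Kit for survival.

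The sequences before the transcription start are shown for the protease genes for which one was at hand. They are from RefSeq, build GRCr8, and run 5′ to 3′ on the strand of the gene over the 250 bases before the start. The positions are chr15:33390134-33390383 (- strand) for Cma1, chr15:33841356-33841605 (+ strand) for Mcpt1, chr2:104673238-104673487 (- strand) for Cpa3, chr10:14867303-14867552 (- strand) for Tpsab1 and chr10:14886060-14886309 (+ strand) for Tpsb2. Capitals mark GATAA, the core bound by GATA factors, on either strand (TTATC where it lies on the other strand):
Cma1: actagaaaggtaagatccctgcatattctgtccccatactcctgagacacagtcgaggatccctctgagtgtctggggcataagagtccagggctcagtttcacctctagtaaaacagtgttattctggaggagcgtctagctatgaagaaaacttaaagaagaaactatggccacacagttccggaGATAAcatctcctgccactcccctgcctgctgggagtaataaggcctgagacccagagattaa
Mcpt1: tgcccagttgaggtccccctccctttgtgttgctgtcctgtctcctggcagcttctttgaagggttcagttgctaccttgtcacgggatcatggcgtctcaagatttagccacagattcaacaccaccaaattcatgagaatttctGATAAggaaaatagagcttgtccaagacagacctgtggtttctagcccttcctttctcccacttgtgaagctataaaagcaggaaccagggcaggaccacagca
Cpa3: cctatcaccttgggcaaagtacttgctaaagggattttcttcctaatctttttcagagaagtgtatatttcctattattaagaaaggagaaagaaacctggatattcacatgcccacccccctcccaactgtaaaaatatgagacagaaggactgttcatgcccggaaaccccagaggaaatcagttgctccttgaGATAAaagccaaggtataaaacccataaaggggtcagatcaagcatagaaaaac
Tpsab1: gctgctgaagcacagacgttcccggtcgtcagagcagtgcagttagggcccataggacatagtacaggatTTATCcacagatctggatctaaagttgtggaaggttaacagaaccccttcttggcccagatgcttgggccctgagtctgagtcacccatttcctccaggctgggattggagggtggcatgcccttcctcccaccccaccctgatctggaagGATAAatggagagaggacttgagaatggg
Tpsb2: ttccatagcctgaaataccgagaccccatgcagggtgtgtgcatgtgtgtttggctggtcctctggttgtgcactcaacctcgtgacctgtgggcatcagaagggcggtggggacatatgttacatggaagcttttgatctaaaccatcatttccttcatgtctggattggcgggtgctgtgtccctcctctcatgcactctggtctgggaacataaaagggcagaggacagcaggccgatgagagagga

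The table held such a sequence for 8 of the 9 genes, all but Mcpt10. GATAA lay in 4 of the 8, those of Cma1 at 63, Mcpt1 at 104 and Cpa3 at 54 bases before the start, and that of Tpsab1 at 180 and 29 bases. It lay in 23.5% of all 33469 such sequences. The E-box form CATGTG, on either strand, lay in those of Tpsb2 and Cpa3 and in 12.09% of all. The TATA box letters TATAAA, on either strand, lay in those of Mcpt1 and Cpa3 and in 12.9% of all. No letters of these 3 motifs were in the windows of Srgn, Hdc and Kit. Hdc and Tpsb2, both without GATAA, varied with the other proteases among the arrays, as given below. A match here is a run of letters and not a measured binding site. Whether these motifs bear on the levels was not tested.

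Of the 9 genes, the signal of Srgn and Mcpt10 was higher in hypertensive vessels at an adjusted p under 0.05 (limma, adjusted over all 24552 genes and unnamed probes tested), none was lower, and 7 were not past the threshold. Over all tests, 4.53% passed in either direction, 2.61% higher and 1.91% lower. The difference was positive for 8 of the 9 genes, where 57.7% of all tests were positive. The median change of the 9 genes was 0.75 on the log2 scale, beside 0.04 over all tests, and it was 0.55 without hypertensive replicate 4. In 3 genes (Srgn, Mcpt10 and Cma1) every hypertensive array lay above every control array, and this was so for 7.84% of all tests. Groups were apart in either direction in 13.6% of all tests. In whole tissue, more mast cells and more of these transcripts per cell cannot be told apart.

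**Figure D1:**
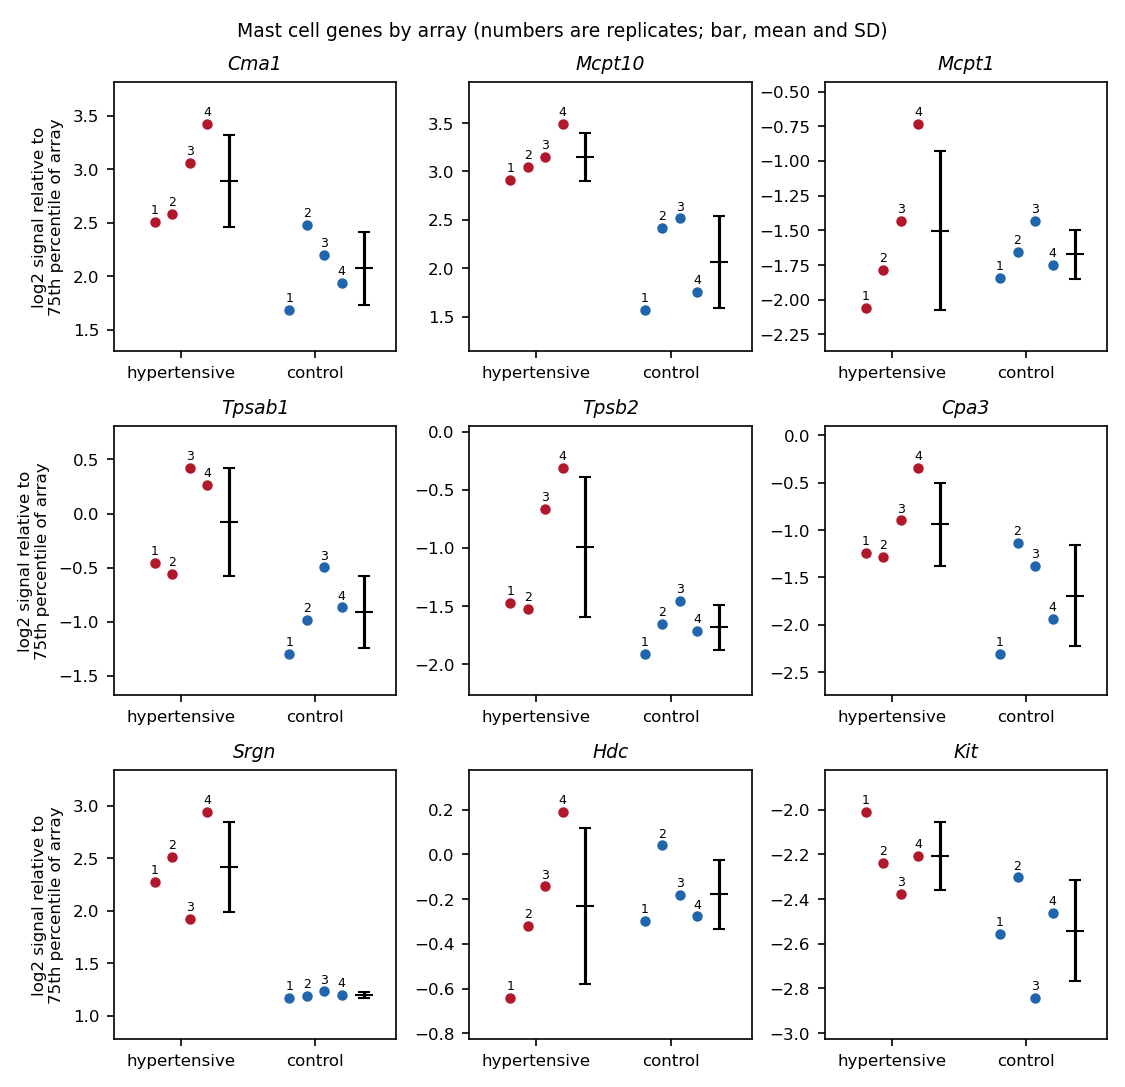
Level of the 9 mast cell genes on each array (y axis, log2 signal relative to the 75th percentile of the array), with hypertensive arrays on the left and control arrays on the right of each panel; bars give the mean and SD of 4 arrays. The groups are apart for Srgn, Mcpt10 and Cma1, and they overlap for the other 6 genes; each panel has its own scale.

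Among the chymases, Cma1 encodes one that connective tissue mast cells hold. Its level was 2.51, 2.58, 3.06 and 3.43 in hypertensive replicates 1 to 4 and 1.68, 2.48, 2.20 and 1.94 in control replicates 1 to 4. The groups did not overlap, but hypertensive replicate 1 lay only just above control replicate 2. The means were 2.89 ± 0.43 in hypertensive vessels and 2.08 ± 0.34 in control vessels (SD, n = 4 each), a difference of 0.82 ± 0.24 (SE; 1.76-fold) that was not past the threshold (limma adjusted p = 0.092).

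Mcpt10 encodes a further granule serine protease of the same family. It was read by 4 probes. On the brightest, hypertensive replicates 1 to 4 gave 2.91, 3.05, 3.15 and 3.49 and control replicates 1 to 4 gave 1.56, 2.42, 2.52 and 1.76. All hypertensive arrays were above all controls, and among the controls replicates 1 and 4 were the low ones. Mcpt10 averaged 3.15 ± 0.25 in hypertensive vessels and 2.06 ± 0.47 in control vessels (SD, n = 4 each), and rose by 1.09 ± 0.23 (SE; 2.12-fold, limma adjusted p = 0.035). The call of Mcpt10 was lost without any 1 array other than control replicate 2 or 3, with changes of 0.92 to 1.24 over the tests with 1 array left out.

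The other Mcpt10 probes gave changes of 1.08 ± 0.25, 1.14 ± 0.26 and 0.87 ± 0.24 (SE), and the groups did not overlap on any of the 4. Adjusted over all kept probes, the 3 brighter probes passed (limma adjusted p = 0.035, 0.047 and 0.043) and the dimmest did not (0.088). Of all 27822 kept probes, 2.45% were called higher and 7.53% had every hypertensive array above every control array. The probes carry the same accession, so they are repeated readings of 1 transcript and not replicates.

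Mcpt1 encodes a rat mast cell chymase, and the annotation lists rMCP-2 among its aliases. Its 1 probe gave -2.06, -1.78, -1.43 and -0.73 in hypertensive replicates 1 to 4 and -1.84, -1.66, -1.43 and -1.75 in control replicates 1 to 4. The hypertensive arrays spread on both sides of the controls. The difference was 0.17 ± 0.26 (SE; limma adjusted p = 0.749), and it was -0.09 without hypertensive replicate 4. Whether Mcpt1 differed from Mcpt10 in its change was not tested.

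Cma1, Mcpt1 and Mcpt10 are neighbours in 1 cluster of serine protease genes on rat chromosome 15. Of the 17 protein-coding genes from Cma1 to Mcpt10 in gene order, 9 had a named probe and 6 were tested. Beside the 3 listed genes these were Mcpt8l2 (0.88 ± 0.24, adjusted p = 0.080), Mcpt9 (0.80 ± 0.23, adjusted p = 0.089) and Mcpt1l1 (0.56 ± 0.27, adjusted p = 0.287; limma, ± SE), the last named after its values were seen. All 6 changes were positive, from 0.17 to 1.09, and Mcpt10 alone was past the threshold. The probes of Mcpt4, Mcpt3 and Vch, which lie between Cma1 and Mcpt8l2, were well above background on no array. In the rat, MCP-4 and MCP-3 belong to the same protease family, and Vch is the vascular chymase. The genes of this cluster are alike in sequence, so transcripts of one could bind a probe of another, and which member a probe reads is uncertain.

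**Figure D2:**
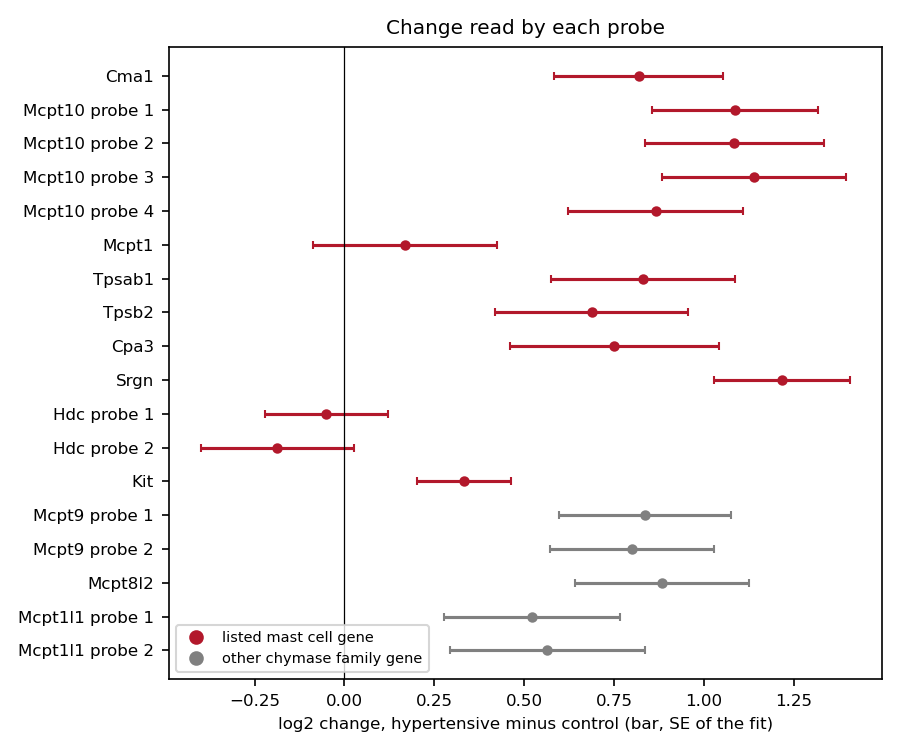
Log2 change, hypertensive minus control, read by each of the 13 probes of the mast cell genes (red) and by the 5 probes of Mcpt9, Mcpt8l2 and Mcpt1l1 (grey); bars give the SE from limma (n = 4 arrays in each group). The 4 Mcpt10 probes lie between 0.87 and 1.14, and both Hdc probes lie below 0.

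Tpsab1 and Tpsb2 encode tryptases of the granule and lie near each other on chromosome 10. Tpsab1 was at -0.46, -0.56, 0.43 and 0.26 in hypertensive replicates 1 to 4 and at -1.30, -0.98, -0.50 and -0.87 in control replicates 1 to 4. Control replicate 3 lay between the hypertensive arrays, so the groups overlapped by this 1 array. The difference was 0.83 ± 0.26 (SE; 1.78-fold, limma adjusted p = 0.111).

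Tpsb2 was at -1.47, -1.53, -0.67 and -0.31 in hypertensive replicates 1 to 4 and at -1.91, -1.65, -1.45 and -1.71 in control replicates 1 to 4. Hypertensive replicates 3 and 4 stood above all other arrays, while replicates 1 and 2 lay beside control replicate 3. The difference was 0.69 ± 0.27 (SE, limma adjusted p = 0.195) and 0.46 without hypertensive replicate 4. Both tryptases were read by 1 probe each, and since the genes are closely related the 2 probes may share transcripts. The probe of Tpsg1, the membrane-anchored gamma tryptase, was well above background on 1 hypertensive array and on no control array.

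Cpa3 encodes mast cell carboxypeptidase A, which trims residues from the C-terminal end of peptides and is stored with chymase. Its level was -1.24, -1.28, -0.90 and -0.34 in hypertensive replicates 1 to 4 and -2.31, -1.14, -1.37 and -1.94 in control replicates 1 to 4. Control replicate 2 lay above hypertensive replicates 1 and 2. The difference was 0.75 ± 0.29 (SE; 1.68-fold, limma adjusted p = 0.192), and 0.55 without hypertensive replicate 4.

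Srgn encodes serglycin, the core protein whose heparin or chondroitin sulphate chains hold the proteases in the granule. It is also made by other blood cells, platelets and endothelium. Srgn was at 2.27, 2.51, 1.92 and 2.94 in hypertensive replicates 1 to 4 and at 1.17, 1.19, 1.23 and 1.20 in control replicates 1 to 4. The controls were almost level (SD 0.03) while the hypertensive arrays spread over a full log2 unit (SD 0.43), all above the controls.

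Srgn rose by 1.22 ± 0.19 (SE; 2.32-fold, limma adjusted p = 0.0087), the largest change among the 9 genes in this fit. It was past the threshold under all 18 alternatives tried, with changes of 1.04 to 1.38, and without hypertensive replicate 4 it was 1.04. Unlike the proteases, it was lowest in hypertensive replicate 3 among the hypertensive arrays.

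Hdc encodes histidine decarboxylase, the enzyme that makes histamine. Its brighter probe gave -0.64, -0.32, -0.14 and 0.19 in hypertensive replicates 1 to 4 and -0.30, 0.04, -0.18 and -0.28 in control replicates 1 to 4. The hypertensive arrays enclosed the controls on both sides. The difference was -0.05 ± 0.17 (SE, limma adjusted p = 0.896), and -0.19 ± 0.21 on the second probe with overlapping groups there too.

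Kit encodes the receptor for stem cell factor. Its level was -2.01, -2.24, -2.38 and -2.21 in hypertensive replicates 1 to 4 and -2.56, -2.30, -2.84 and -2.46 in control replicates 1 to 4. Only control replicate 2 reached into the hypertensive range. The difference was 0.33 ± 0.13 (SE, limma adjusted p = 0.196), and 0.33 without hypertensive replicate 4. Kit is also carried by melanocytes and interstitial cells of Cajal, and of their marker genes Tyr and Tyrp1 were below the detection filter while Ano1, which smooth muscle also makes, differed by 0.19.

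The proteases varied together among the rats of a group. With the mean of each group subtracted, the Pearson correlations between the 15 pairs of the 6 protease genes over the 8 arrays were 0.63 to 0.96, with a median of 0.76 (Spearman 0.55 to 0.95). They were 0.53 to 0.97 without hypertensive replicate 4, with the group mean taken again over the arrays left. Without hypertensive replicates 4 and 1, the arrays farthest from the median, they were 0.51 to 0.96. In that case the group means were still those of all arrays. Hdc went with them, at 0.61 to 0.91 with the 6 proteases. Srgn gave -0.04 to 0.57 and Kit -0.57 to -0.05, and without hypertensive replicate 4 Srgn gave -0.79 to -0.03. These correlations describe 8 arrays, share the scaling and the labelling of each array, and carry no test.

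The mean level of the 6 proteases was 0.03, 0.08, 0.61 and 0.97 in hypertensive replicates 1 to 4 and -0.69, -0.09, -0.01 and -0.43 in control replicates 1 to 4. Hypertensive replicate 4 was the highest of all 8 arrays on 11 of the 13 probes of the mast cell genes, the exceptions being those of Tpsab1 and Kit. It was the highest hypertensive array in 7 of the 9 genes and in 24.5% of all tests. The marker genes of white fat were also highest there, with a mean level of 1.97 in that array, while hypertensive replicates 1 to 3 had -1.37 to -0.19 and the controls -0.86 to 0.27. Lymphocyte and natural killer cell markers were highest there too, with a mean level of -0.72, while hypertensive replicates 1 to 3 had -1.67 to -1.41 and the controls -1.40 to -0.91. The part of both lists in the protease levels was not tested. Control replicate 1 was the lowest control in 8 of the 9 genes, all but Kit, and in 26.9% of all tests.

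**Figure D3:**
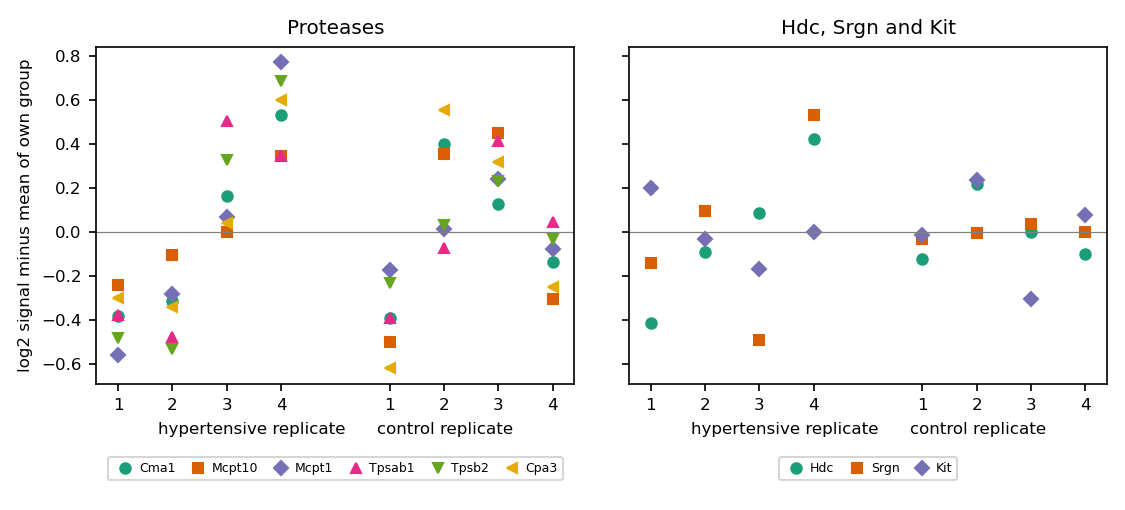
Level of each mast cell gene minus the mean of its own group (y axis, log2), by hypertensive replicate and control replicate (x axis), for the 6 proteases on the left and for Hdc, Srgn and Kit on the right. The proteases are below 0 in hypertensive replicates 1 and 2 and in control replicate 1, where Srgn and Kit show no such order.

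By the same measure, the named genes outside the list with the pattern most like the protease mean were Prelid1 (Pearson correlation 0.99 over 8 arrays), Pdcd2 (0.98), Car2 (0.98), Zfat (0.97), Scgb1c1 (0.97) and Tlnrd1 (0.97). None of these 6 differed between the groups at the threshold, with changes of -0.36 to -0.04. Of 11956 named genes, 73 had a correlation over 0.9, among them Mcpt9 (0.93), Mcpt1l1 (0.93) and Fcer1a (0.90). Ms4a2 was at 0.85 and Gata2 at 0.13.

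Genes of mast cell receptors and signalling numbered 20 as listed, of which 16 were tested, 1 was higher and none lower (background 4.53%). The median change was 0.12. The high-affinity IgE receptor has its alpha chain from Fcer1a and its beta chain from Ms4a2, both markers of mast cells and basophils. Fcer1a gave -2.36, -2.14, -1.59 and -1.54 in hypertensive replicates 1 to 4 and -3.25, -2.13, -2.45 and -2.70 in control replicates 1 to 4, a difference of 0.72 ± 0.27 (SE, limma adjusted p = 0.172). Ms4a2 differed by 0.83 ± 0.27 (SE, limma adjusted p = 0.133), and in both genes control replicate 2 reached into the hypertensive range. Gata2, a transcription factor of the mast cell lineage that endothelium also uses, differed by 0.08 ± 0.11 (SE, limma adjusted p = 0.727).

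The member of this list past the threshold was Mrgprx3, of the Mas-related receptor family. It was at -2.60, -2.64, -3.42 and -2.82 in hypertensive replicates 1 to 4 and at -4.01, -3.61, -3.47 and -3.79 in control replicates 1 to 4. It rose by 0.85 ± 0.19 (SE, limma adjusted p = 0.045), with hypertensive replicate 3 just above the highest control, and the call held in only 1 of the 8 fits that left out an array, the one without hypertensive replicate 3. The change was 0.43 with normexp, and the call was lost with quantile normalization, median centring and no filter on dim probes.

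Of 14 tested genes of granule transport and release, 1 was higher and none lower (background 4.53%), with a median change of 0.06. For Rab27b, a small GTPase of granule release, named after its values were seen, the brighter probe gave -0.19 ± 0.28, but a second gave -1.16 ± 0.17 (SE, limma adjusted p = 0.0066 over kept probes), so the probes disagree. The gene that was higher was Slc18a2, the vesicular monoamine transporter that loads histamine and other amines into granules, in mast cells and in aminergic nerves. Slc18a2 gave -1.15, -1.32, -1.05 and -1.17 in hypertensive replicates 1 to 4 and -3.07, -2.82, -3.17 and -3.14 in control replicates 1 to 4. The groups were far apart, and replicate 4 did not stand out in either. It rose by 1.88 ± 0.10 (SE; 3.67-fold, limma adjusted p = 3.04e-05), past the threshold without any 1 array and in all 10 other settings. The size of the change was smaller with normexp background correction, at 1.21. Its deviations within groups correlated at 0.30 with those of the protease mean.

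Of 8 tested genes of lipid mediator synthesis, Hpgds was higher, Ptgs2 was lower and 6 were not past the threshold (background 4.53%). Hpgds encodes the prostaglandin D synthase of haematopoietic cells, among them mast cells and macrophages. Its brighter probe gave -0.05, -0.12, -0.23 and 0.22 in hypertensive replicates 1 to 4 and -1.26, -0.90, -0.67 and -1.14 in control replicates 1 to 4. It rose by 0.95 ± 0.15 (SE; 1.93-fold, limma adjusted p = 0.0094), but its second probe gave -0.34 ± 0.22, so the probes disagree, and the mean of both gave 0.30 (adjusted p = 0.364). Ptgs2, an inducible cyclooxygenase, changed by -1.05 ± 0.22 (SE, limma adjusted p = 0.031). It was past the threshold in 3 of the 8 fits that left out an array, those without hypertensive replicate 1, hypertensive replicate 2 or control replicate 2.

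**Figure D4:**
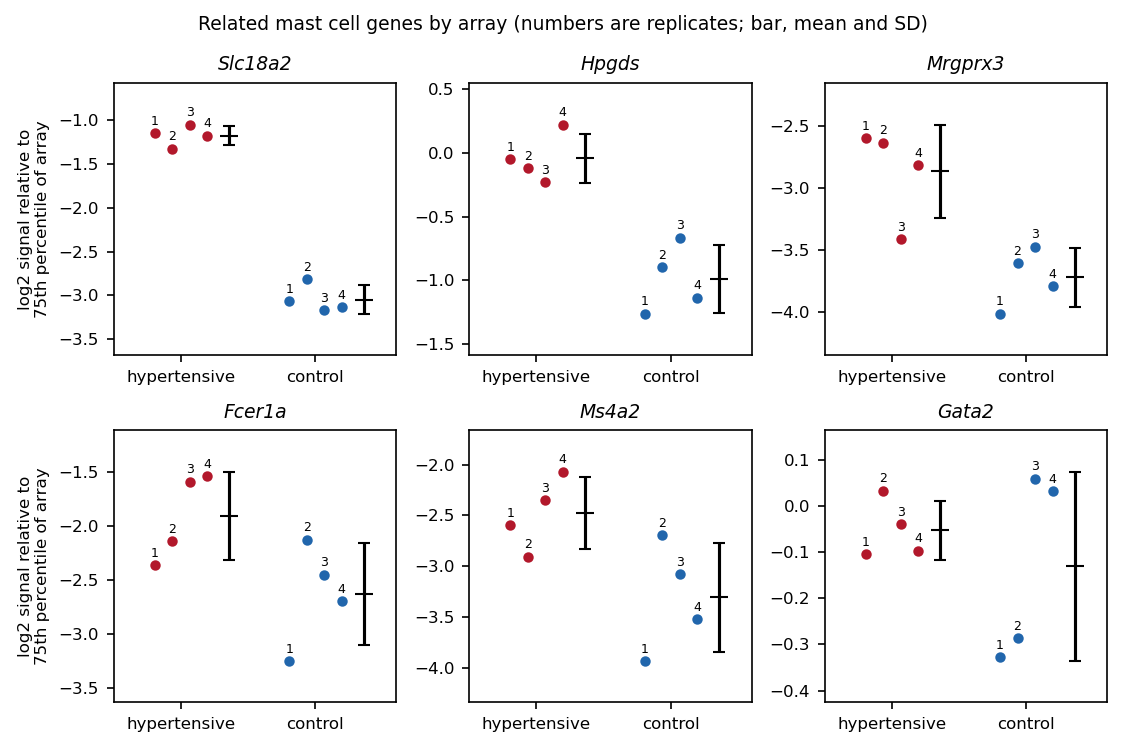
Level on each array (y axis, log2 signal relative to the 75th percentile of the array) of the amine transporter gene Slc18a2, the synthase gene Hpgds, the receptor genes Mrgprx3, Fcer1a and Ms4a2 and the transcription factor gene Gata2, with hypertensive arrays left of control arrays; bars give the mean and SD of 4 arrays. Slc18a2 and Hpgds (brighter probe) are apart between the groups, Mrgprx3 is only just apart, and Fcer1a, Ms4a2 and Gata2 overlap.

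Of 9 tested genes of heparin synthesis and the granule matrix, 2 were higher and 1 was lower, with a median change of 0.17. Over all tests, 2.61% were higher and 1.91% lower. Hs2st1, which adds 2-O-sulphate to heparan sulphate and heparin chains, rose by 0.47 ± 0.08 (SE, limma adjusted p = 0.016), a call lost without hypertensive replicate 2, with median centring and with no filter on dim probes. The hyaluronan receptor gene Cd44 rose by 0.34 ± 0.08 (SE, limma adjusted p = 0.0496), past the threshold in 0 of the 8 fits that left out an array, and its 2 other probes gave 0.17 and -0.11, so the probes disagree. Ext2, which lengthens the chains, changed by -0.35 ± 0.08 (SE, limma adjusted p = 0.043), past the threshold in 1 of those 8 fits. Ndst2, a sulphotransferase on which mast cell heparin depends, was among the 6 not past the threshold.

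None of the 3 tested genes of histamine handling passed, with the receptor genes Hrh4 at -0.16 and Hrh3 at 0.08, and the 4 genes of the list below the detection filter included the receptor genes Hrh1 and Hrh2. None of the 6 tested mast cell growth factors and chemoattractants passed, with the chemokine gene Cxcl12 at 0.66 ± 0.18 on its brightest probe (0.22 and 0.26 on the others) and the eosinophil chemokine gene Ccl11 at 1.82 ± 0.57 (SE, limma adjusted p = 0.086 and 0.118). Kitlg, the ligand of Kit, named after its values were seen, differed by 0.01 ± 0.13 (SE). None of the 16 tested genes of other granule and serine proteases and their inhibitors passed, with a median change of 0.34.

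Of 10 defining mast cell markers, all tested, 1 was higher (Slc18a2) and none lower (background 4.53%). The summed signal of the 10 was 9.84 to 16.9 times the array's 75th percentile in hypertensive vessels and 6.15 to 9.43 in controls. However, 6 of the 10 are listed genes, selected on this same difference, and hold most of that sum. The 4 others (Slc18a2, Fcer1a, Ms4a2 and Gata2) summed to 1.74 to 1.99 in hypertensive vessels and 1.09 to 1.45 in controls. Gata2 was the brightest of them, with mean log2 levels of -0.05 in hypertensive vessels and -0.13 in controls. Its groups overlapped, as did those of Fcer1a (0.72) and Ms4a2 (0.83), and none of these passed. Only Slc18a2 (1.88), which aminergic nerves also make, had groups apart. The part of mast cells in this sum was not tested.

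Other cells could hold some of these transcripts. For the counts of their markers, the background over all tests was 2.61% higher and 1.91% lower. Among basophil markers, 3 of 6 were tested and Prss34, a mast cell and basophil serine protease, rose by 0.66 ± 0.11 (SE, limma adjusted p = 0.014), and it was well above background on all 4 hypertensive and 3 of 4 control arrays. Its change was 0.28 with normexp, and the call was lost with quantile normalization. The summed signal of the basophil markers was 2.30 to 2.97 in hypertensive vessels and 2.40 to 2.63 in controls, nearly all of it from Il3ra (0.004 ± 0.098, SE). The other 2, Prss34 and Mcpt8l2, summed to 0.237 to 0.379 in hypertensive vessels and 0.134 to 0.200 in controls, and the median change of the 3 was 0.66. For neutrophils, Elane, Prtn3 and Ctsg were well above background on no array, and 1 of 10 markers was tested, S100a9, at -0.97 ± 0.63 (SE, not past the threshold) and at -0.23 without hypertensive replicate 1. For platelets, which also hold Srgn, none of 3 tested markers passed, and their summed signal was 5.27 to 6.07 in hypertensive vessels and 6.92 to 9.07 in controls. That sum was nearly all Pf4 (-0.44 ± 0.11, SE, groups apart). Gp9 (0.17) and Treml1 (-0.05) together gave 0.131 to 0.143 in hypertensive vessels and 0.120 to 0.140 in controls. None of 6 endothelial and 6 smooth muscle markers passed. The summed signal of the endothelial markers was 122 to 159 in hypertensive vessels and 117 to 136 in controls. Vwf was the brightest of them, at 0.46 on its brighter probe and 0.10 on the other. Pecam1 (0.19) and Cdh5 (0.01) were also positive, while Cldn5 (-0.43, groups apart), Tie1 (-0.27) and Kdr (-0.08) were negative. For smooth muscle the summed signal was 296 to 419 in hypertensive vessels and 275 to 379 in controls. Of 9 macrophage markers Mrc1 was lower (-0.51 ± 0.12, limma adjusted p = 0.0496), past the threshold in 1 of the 8 fits that left out an array, and -0.25 and not past it with normexp. The median change of the list was -0.24. Csf1r (-0.49), Cd163 (-0.68) and Adgre1 (-0.47) were not past the threshold, with groups apart for Csf1r and Cd163. Without hypertensive replicate 4, Mrc1 (-0.60), Csf1r (-0.58), Cd163 (-0.77) and Adgre1 (-0.60) were past it (limma adjusted p = 0.019, 0.020, 0.039 and 0.026). In that fit the other tested macrophage markers were not past it, with Lyz2 at 0.45 and C1qc at -0.39. Over all arrays, the summed signal of the list was 153 to 216 in hypertensive vessels and 133 to 169 in controls. Most of it came from Lyz2 (0.53 ± 0.14, SE, not past the threshold). Without Lyz2 it was 55.6 to 75.6 in hypertensive vessels and 59.5 to 74.3 in controls. None of 9 lymphocyte and natural killer markers passed, and the median change of the list was -0.31. Their summed signal was 5.18 to 12.06 in hypertensive vessels and 7.18 to 10.04 in controls, but it mixed opposite changes. Cd3d (-0.74, groups apart), Cd3g (-0.89) and Cd3e (-0.46) were negative, while Nkg7 (0.58), Klrb1a (0.55) and Cd4 (0.02) were positive. Without hypertensive replicate 4, Cd3d (-0.88) and Cd3g (-1.13) were past the threshold (limma adjusted p = 0.017 and 0.0095). The summed signal of 9 white fat markers was 16.5 to 82.6 in hypertensive vessels and 19.5 to 32.8 in controls, with none past the threshold, and that of the 9 mast cell genes was 20.7 to 34.5 in hypertensive vessels and 10.5 to 16.0 in controls. The part of these other cells in the changes of Srgn and Hpgds was not tested.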

How the data were processed

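RNA from vessels of 4 hypertensive and 4 control rats was measured on 1-colour Agilent arrays. The processed intensity of each spot in the deposited files was background-subtracted by Feature Extraction, per the file headers, which give version 10.7.1.1 where the submitters' processing notes give 12.1.1.1. The deposited value table holds a linear ratio, equal to the processed signal over a constant near each array's 75th percentile (0 probes above 1 deviate by over 5%), with column medians of 0.101, 0.093, 0.097 and 0.090 in hypertensive and 0.092, 0.089, 0.086 and 0.091 in control replicates 1 to 4; it was an alternative only.

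The members, lists, motifs and tests were chosen with earlier results of these data known. For each probe the log2 values of its spots were averaged, leaving out outlier spots where another remained. A probe was kept if well above background on at least 3 of 4 arrays of a group, and the brightest kept probe stood for a gene. Genes were named by accession through a RefSeq table (GRCr8), which matched 46.6% of probes. Groups were compared with limma version 3.58.1 (R version 4.3.3) over 24552 tests, with a Benjamini-Hochberg adjusted p threshold of 0.05. The fit was also run on simulated levels with independent noise, which cannot show how it does where genes vary together among arrays. The text names all listed genes, the genes of each related list past the threshold or else its 2 of smallest p, defining mast cell markers, and the 6 genes most like the protease mean. Tpsg1, Vch, Ndst2, Hrh1, Hrh2, Ano1, Tyr, Tyrp1 and the markers of other cells that did not pass were named after their values were seen. Summed signals add linear signals relative to the 75th percentile. The number of arrays limits the precision, and whether p-values cover more than the spread between these samples is not known, though each array is a separate rat per the design text. Slide and scan were the same for all arrays. Normexp correction used the median spot signal, as the files used here hold no mean spot signal, in place of the mean planned.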

Additional observations from a re-analysis of the deposited data

How the results depend on the processing

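Over 18 alternatives, the changes of Srgn, Mcpt10, Cma1, Tpsab1, Tpsb2, Cpa3 and Kit kept their sign. Mcpt10 was past the threshold under 9 of the 18. Its change was 1.001 with median centring, 1.09 with no filter on dim probes and 1.09 with the replicate block (adjusted p = 0.058, 0.077 and 0.073), so 1 of the 9 genes passed with median centring and with no filter, and 1 to 2 with 1 array left out; adjusted p for Mcpt10 ran from 0.0067 to 0.081. Tpsab1 passed only with the replicate block (0.83, adjusted p = 0.044). The difference of Hdc was 0.0063 with normexp, 0.0878 without hypertensive replicate 1 and 0.02 without control replicate 2, and that of Mcpt1 was -0.0882 without hypertensive replicate 4, none past the threshold. With 1 array left out, the change of Hdc was -0.19 to 0.0878 and that of Mcpt1 -0.0882 to 0.35. The cause was not tested.

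Of all tests, 1111 passed, and 1853 with normexp, 641 with no filter, 675 with the replicate block and 629 to 1473 with 1 array left out. Calls split into 641 higher and 470 lower, and into 529 and 586 with quantile normalization and 422 and 652 with median centring. Of the related genes 7 passed, and 4 with median centring, 2 with no filter, 1 with the replicate block (Slc18a2) and 3 to 7 with 1 array left out. The calls of the markers Prss34 and Mrc1 were also lost with the replicate block. Arrays of the same replicate number lay in the same column of the slide. Their deviations from the group means correlated at 0.21, 0.12, -0.0035 and -0.15 for replicates 1 to 4. Such correlations cannot show whether the replicate numbers pair the rats.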
